A study of Arabidopsis thaliana with 72 samples.

Results

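A set of 9 root hair genes of Arabidopsis thaliana was followed across shoots and roots of seedlings treated with t-chalcone, an aromatic ketone made by plants that acts as a phytotoxin. The 9 members were chosen by identifier, with earlier results of these data known, and all 9 were among the 22884 genes measured. Counts of members set beside shares of all genes below describe this chosen set and are not independent support. They are the transcription factors RHD6 (AT1G66470) and RSL4 (AT1G27740), the proline-rich wall proteins PRP1 (AT1G54970) and PRP3 (AT3G62680), the alpha expansins EXPA7 (AT1G12560) and EXPA18 (AT1G62980), the leucine-rich repeat extensin LRX1 (AT1G12040), the COBRA-like protein SHV2 (AT5G49270) and the peroxidase RHS19 (AT5G67400). Seedlings were 14 days old and received 21 μM t-chalcone, the concentration named in the labels as the IC50, while controls received 0.1% ethanol (EtOH). For the t-chalcone libraries the labels give no ethanol percentage, so an equal amount of ethanol in both is not established. Shoots and roots were taken at 0 h and at 1, 3, 6, 12 and 24 h with EtOH or t-chalcone, with 3 RNA-seq libraries in each of 22 groups. Each of 6 further columns, labelled as untreated, repeated an EtOH column of 0 h value for value and was left out, so 66 libraries remained. Which of the 2 labels holds for the 0 h libraries cannot be told from the files, and they are called EtOH 0 h below although they may be untreated. The labels give no ecotype and do not say that replicates were separate cultures, so the p-values below speak of variation among the libraries as sampled, part of which may be technical.

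A root hair is a tubular outgrowth of a single epidermal cell that grows at its tip and enlarges the surface for uptake of water and ions. The basic helix-loop-helix (bHLH) factor RHD6 acts early and makes an epidermal cell competent to form a hair, and it acts upstream of RSL4, a factor of the same family whose level sets how long the hair grows. The genes below them act in the wall of the growing tube. Expansins loosen it, proline-rich proteins and LRX1 are built into it, SHV2 is a membrane-anchored protein needed for tip growth, and class III peroxidases such as RHS19 act on wall extensins and reactive oxygen.

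Values are gene counts divided by a size factor for each library, and below they are called deposited values. The whole numbers recovered from them summed to between 0.128 and 22.5 M (mega) per root library, with a median of 10.3 M, and to between 0.246 and 26.0 M in shoots, with a median of 14.5 M. Under 0.5 M lay 5 libraries, of which 2 were from roots, EtOH 0 h replicate 1 (0.186 M) and EtOH 3 h replicate 1 (0.128 M). There the lowest possible value was 27.0 and 35.3 deposited units, and RHD6, RSL4 and PRP1 at 0 h and RHD6 at 3 h stood exactly at it, so those 4 values cannot be told from no reads. In the other 31 root libraries the 9 members rested on recovered whole numbers between 10 and 2366.

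The promoters of the wall genes are shown first, because a short element recurs in them. The sequences were read from the TAIR10.1 assembly with its RefSeq annotation as the 250 bases before each annotated gene start. The deposited table has no coordinates, and TAIR10 is the build in the submitters' processing notes. The root hair element is a published consensus of hair-specific promoters that has been defined partly on EXPA7 and EXPA18, so the matches in these 2 are not independent of it. Its match in 5 members is given 5′ to 3′ on the strand where it was found, with the TG and the GCACG of its core in capitals.
PRP1: atagTGttatGCACGat
PRP3: taagTGtaatGCACGat
EXPA7: atagTGatccGCACGta
EXPA18: aacaTGaacGCACGtc
LRX1: aactTGgacGCACGtt

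The element began 129 bases before the gene start in PRP1, 167 in PRP3, 93 in LRX1, 78 in EXPA7 and 40 in EXPA18. It lay on the strand opposite to the gene in PRP1, PRP3 and LRX1, and on the gene's strand in both expansins. The 5 promoters, on the forward strand in each case, are chr1:20504651-20504900 for PRP1, chr3:23182472-23182721 for PRP3, chr1:4276255-4276504 for EXPA7, chr1:23331313-23331562 for EXPA18 and chr1:4069742-4069991 for LRX1. They are printed whole to show where the element, in capitals, lies relative to the gene start at the right end.
PRP1: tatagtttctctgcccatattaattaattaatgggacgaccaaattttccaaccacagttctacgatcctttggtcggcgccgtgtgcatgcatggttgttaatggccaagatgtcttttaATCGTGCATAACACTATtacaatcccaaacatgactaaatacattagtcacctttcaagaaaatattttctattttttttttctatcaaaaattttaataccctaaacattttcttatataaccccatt
PRP3: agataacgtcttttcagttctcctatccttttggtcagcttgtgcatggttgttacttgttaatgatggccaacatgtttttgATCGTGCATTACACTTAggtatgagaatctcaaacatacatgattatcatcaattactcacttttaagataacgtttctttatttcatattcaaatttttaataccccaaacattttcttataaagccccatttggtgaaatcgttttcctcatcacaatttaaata
EXPA7: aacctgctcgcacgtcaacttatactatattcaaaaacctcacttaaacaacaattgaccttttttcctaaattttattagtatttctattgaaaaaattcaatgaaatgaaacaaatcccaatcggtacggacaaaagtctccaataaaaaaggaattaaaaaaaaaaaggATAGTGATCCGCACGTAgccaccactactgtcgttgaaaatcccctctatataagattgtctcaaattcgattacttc
EXPA18: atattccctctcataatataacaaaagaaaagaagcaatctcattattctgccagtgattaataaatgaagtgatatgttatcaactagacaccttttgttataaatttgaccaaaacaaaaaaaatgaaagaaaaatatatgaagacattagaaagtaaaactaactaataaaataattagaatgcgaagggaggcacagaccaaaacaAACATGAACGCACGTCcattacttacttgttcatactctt
LRX1: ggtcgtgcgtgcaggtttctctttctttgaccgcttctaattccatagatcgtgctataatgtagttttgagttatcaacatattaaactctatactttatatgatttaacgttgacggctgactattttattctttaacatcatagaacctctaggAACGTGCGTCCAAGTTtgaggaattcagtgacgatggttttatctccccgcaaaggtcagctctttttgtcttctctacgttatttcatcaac

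Within this window the root hair element, searched on both strands, was found in 5 of the 9 members, or 55.6%, and in 179 of 22695 promoters of protein-coding genes, or 0.789%. A looser core, TGNNNNCACG or TGNNNNNCACG on either strand, includes every match above and was found in 7 of the 9 members, or 77.8%, against 9.31% of all promoters. The 2 without it were the regulators RHD6 and RSL4. The palindrome CACGTG, which many bHLH factors bind, was in 0 of the 9 members and in 7.18% of all promoters. With only 9 promoters, a count of 0 cannot be told from that share. Among 21 other hair wall and root hair specific (RHS) genes, 3 promoters held the element and 11 held the core. How RHS genes came to be named was not checked, so they, RHS19 and other members may not be independent of the element. A match describes letters and does not show that a factor binds there.

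All 9 genes were far higher in roots than in shoots, in EtOH libraries of every time. The test was limma on log2(value + 1) over 22884 genes, with Benjamini-Hochberg adjustment and a threshold of 0.05. The number of members higher in roots was 9 of 9 at each time, and the share of all genes higher in roots was, in order of time, 24.5%, 22.0%, 22.5%, 21.2%, 30.1% and 26.2%. The log2 differences lay between 2.71 and 6.47, and the largest adjusted p from limma among them was 5.97e-05. RHS19 at EtOH 6 h averaged 613 ± 66.1 in roots and 28.1 ± 13.1 in shoots (SD, n = 3). RSL4 averaged 86.4 ± 11.4 and 4.10 ± 1.01 in the same groups. Shoot libraries lay near their floor, since each member stood at the library's lowest value in 6 (LRX1) to 17 (RSL4) of 33. Over all EtOH libraries of at least 0.5 M the root and shoot values of no member overlapped.

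**Figure D1:**
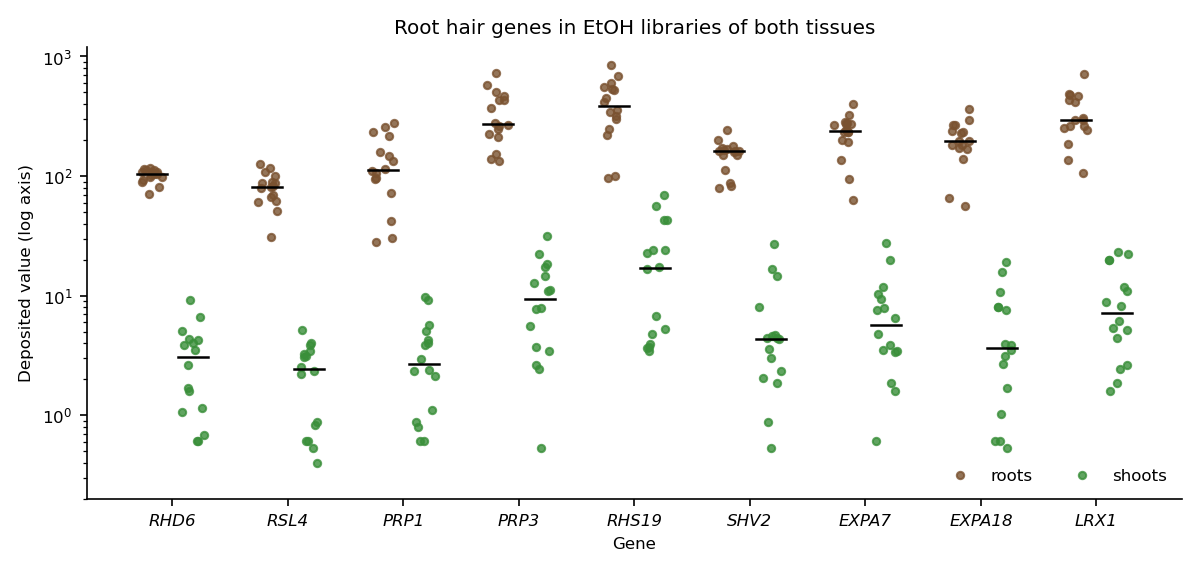
Deposited value of each member (log axis) in EtOH libraries of at least 0.5 M from roots and shoots, one point per library, with a black bar at the median. Root points lie above shoot points for each gene, and RHS19 has the highest median in both tissues.

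Levels of different members can be compared per length of transcript. In roots at EtOH 6 h RHS19 stood highest, at 473 ± 51.0 deposited units per kb (SD, n = 3), and PRP3 followed at 412 ± 61.0, with overlapping libraries. EXPA7 (234 ± 23.1) and EXPA18 (211 ± 25.4) came next and overlapped each other. LRX1 had 170 ± 14.0 and PRP1 had 156 ± 47.7 per kb. RHD6 (72.8 ± 7.61), SHV2 (71.2 ± 4.49) and RSL4 (64.6 ± 8.49) were the lowest, again with overlapping ranges. Copies can share reads to some extent, since the coding sequences of PRP1 and PRP3 were 83.8% identical over 918 aligned bases and those of EXPA7 and EXPA18 75.4% over 761. RHS19, EXPA7 and EXPA18 overlap a gene on the opposite strand by 4, 23 and 46 bases, and the sources do not say whether counting used strand.

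In control roots the wall genes and RSL4 rose from 0 h, while RHD6 did not pass the test at any time. RSL4 was already high at 1 h, whereas RHS19 and both proline-rich genes reached their highest values at 6 or 12 h. RSL4 had values of 27.0, 30.8 and 51.3 at 0 h, and 1 h later they were 126, 118 and 87.9. At 3 h it had 106, 82.4 and 89.7, followed by 79.3, 99.5 and 80.4 after 6 h. Its values of the 12 h libraries were 66.3, 86.9 and 109, and those of the 24 h libraries 69.3, 62.5 and 61.2. Ordered by mean, 1 h, 3 h, 12 h and 6 h overlapped each with the next, 24 h lay below 6 h without overlap, and 0 h lay lowest of all.

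RHS19 had 189, 95.7 and 99.5 at 0 h and 248, 299 and 321 after 1 h. Its level climbed to 282, 419 and 533 by 3 h and 596, 686 and 557 by 6 h. The 12 h libraries had 449, 524 and 845, and the 24 h libraries 355, 341 and 219. The groups at 6 and 12 h overlapped and both lay above 0, 1 and 24 h without overlap. PRP1 had 27.0, 30.2 and 28.2 at 0 h and 279, 217 and 148 at 6 h, which lay far apart. RHD6 had 27.0, 109 and 113 at 0 h, and all its later EtOH libraries but the shallow one at 3 h lay between 71.4 and 118.

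Counted by limma with an adjusted p under 0.05, 6 of the 9 members were higher at 1 h than at 0 h, where 16.2% of all 19835 genes tested were higher. The counts for the 4 later times, in order, were 5 against 8.41% of genes, 8 against 10.2%, 8 against 9.39% and 6 against 12.6%. PRP1 rose by 2.82 ± 0.35 on the log2 scale at 6 h (SE, limma adjusted p = 6.05e-07), RHS19 by 2.32 ± 0.29 (adjusted p = 7.21e-07) and EXPA18 by 1.95 ± 0.28 (adjusted p = 5.54e-06). RSL4 rose by 1.62 ± 0.23 at 1 h (limma adjusted p = 5.48e-06) and by 0.86 ± 0.23 at 24 h (adjusted p = 0.00801). RHD6 differed from 0 h by 0.03 to 0.60, with limma adjusted p from 0.229 to 0.970. Without EtOH 0 h replicate 1, the library at its floor, all 5 differences of RHD6 turned negative, from -0.64 to -0.06. The -0.64 is that of 3 h, where the shallow EtOH 3 h replicate 1 was kept. Without libraries under 0.5 M the 5 differences lay between -0.28 and -0.06, with limma adjusted p from 0.315 to 0.865. The course of time, the hour of day and any addition of EtOH cannot be told apart in these groups, and all 5 comparisons share the 3 libraries of 0 h, one of which is shallow. At 3 h the count was 8 with edgeR and without the shallow EtOH 3 h replicate 1, since PRP3, SHV2 and EXPA7 passed as well.

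**Figure D2:**
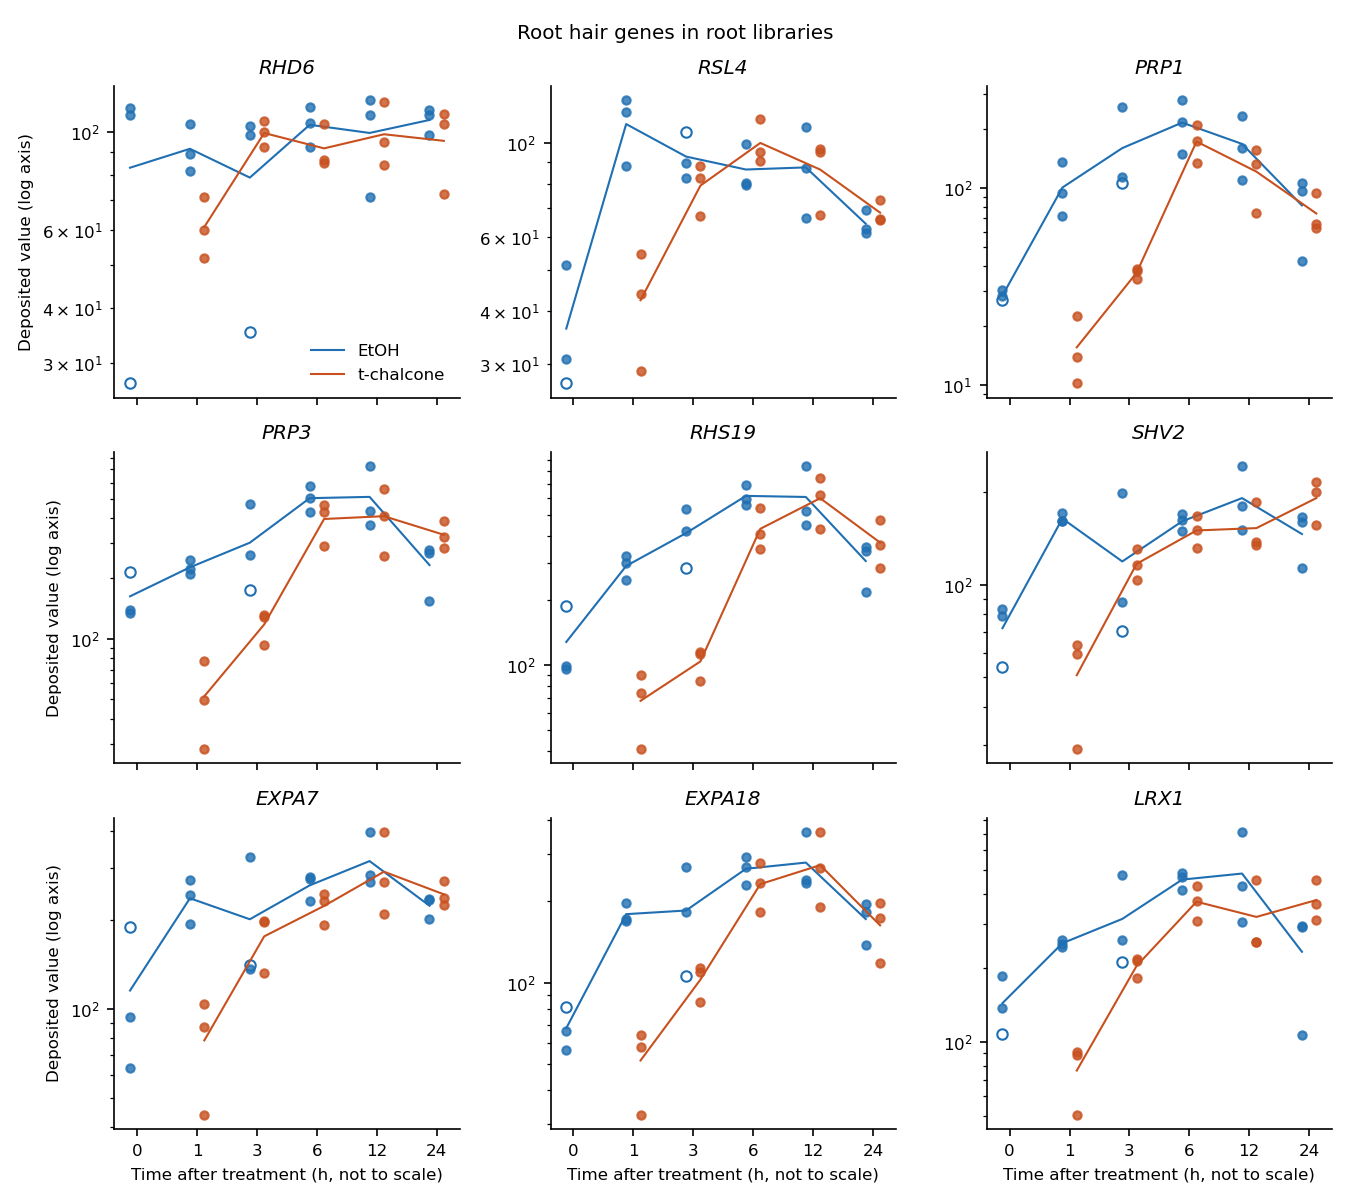
Deposited value of each member in root libraries against time after treatment (h), one point per library, for EtOH and t-chalcone, with lines through the group means and open circles for the 2 libraries under 0.5 M. Each panel has its own vertical axis. At 1 h the t-chalcone points lie below the EtOH points in all 9 panels, and at 6, 12 and 24 h the groups mostly overlap.

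After 1 h of t-chalcone, 8 of the 9 root hair genes were lower in roots than in EtOH libraries of the same hour, by 1.39 (RSL4) to 2.64 (PRP1) on the log2 scale. RHD6, the earliest regulator, was lower in all libraries but did not pass the test. The share of all genes called lower was 3.04%. The values of t-chalcone and EtOH libraries did not overlap for 9 of the 9 members, against 16.7% of all genes in this direction. The members' median log2 change was -1.76, and that of all genes was -0.01.

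RHD6 had values of 81.7, 104 and 89.1 in EtOH at 1 h and 51.9, 59.9 and 71.1 with t-chalcone. Every treated library was below every control, by a smaller step than for the other members. The log2 change was -0.59 ± 0.35 (SE), with a limma adjusted p of 0.672. The SE is estimated over all 11 root groups, which include the shallow libraries at 0 and 3 h in which RHD6 stood at the floor. Without libraries under 0.5 M the same change had a limma adjusted p of 0.0307, and edgeR gave 0.00226.

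RSL4 had 126, 118 and 87.9 in EtOH and 54.6, 28.8 and 43.9 with t-chalcone. The highest treated library stood below the lowest control. The change was -1.39 ± 0.23 (SE, limma adjusted p = 0.000131).

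PRP1 had 71.9, 94.6 and 135 in EtOH and 13.9, 10.2 and 22.5 with t-chalcone. PRP3 had 211, 224 and 247 in EtOH and 49.5, 28.2 and 77.5 with t-chalcone. Replicate 2 was the lowest treated library of both genes, as of 8 of the 9 members, RHD6 being the exception. The log2 change of PRP1 was -2.64 ± 0.35 (limma adjusted p = 5.38e-06), and that of PRP3 was -2.23 ± 0.33 (limma adjusted p = 2.36e-05).

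The expansin EXPA7 had 273, 243 and 194 in EtOH and 87.2, 43.9 and 104 with t-chalcone. EXPA18 had 169, 197 and 172 in EtOH and 57.9, 32.4 and 64.3 with t-chalcone. EXPA7 was lower than in EtOH by 1.66 ± 0.32 (limma adjusted p = 0.000912) and EXPA18 by 1.83 ± 0.28 (limma adjusted p = 3.72e-05) on the log2 scale, and the groups of neither overlapped. LRX1, which joins a receptor-like repeat domain to an extensin, had 251, 260 and 244 in EtOH and 90.5, 50.4 and 88.2 with t-chalcone. It was lower than in EtOH by 1.76 ± 0.33 on the log2 scale (limma adjusted p = 0.00057).

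SHV2 had 171, 161 and 161 in EtOH and 59.4, 29.1 and 63.6 with t-chalcone, and RHS19 had 248, 299 and 321 in EtOH and 74.2, 40.6 and 89.6 with t-chalcone. Neither gene's groups came close to each other. SHV2 was lower than in EtOH by 1.75 ± 0.28 (limma adjusted p = 6.84e-05) and RHS19 by 2.13 ± 0.29 (limma adjusted p = 7.59e-06) on the log2 scale. Summed over the 9 members, EtOH libraries at 1 h held 1600 to 1700 deposited units and t-chalcone libraries 324 to 624. These are bulk samples, so fewer hair cells and less RNA per hair cell cannot be told apart.

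At 3 h of t-chalcone limma called PRP1, PRP3 and RHS19 lower than in EtOH, 3 of 9 against 3.26% of all genes called lower. The values of the other 6 overlapped between the groups. With edgeR 5 members were called, EXPA18 and LRX1 as well, but the 3.26% is the share by limma. The EtOH group holds the library of 0.128 M. PRP1 had 106, 114 and 258 in EtOH and 38.8, 34.7 and 38.0 with t-chalcone, a change of -1.95 ± 0.35 (limma adjusted p = 0.000378). RHS19 had 282, 419 and 533 in EtOH and 83.9, 115 and 113 with t-chalcone, a change of -1.94 ± 0.29 (limma adjusted p = 3.24e-05). The treated libraries of both genes were close to each other and well below all controls.

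PRP3 had 176, 261 and 468 in EtOH and 93.1, 132 and 129 with t-chalcone, a change of -1.25 ± 0.33 (limma adjusted p = 0.0118). Its groups did not overlap, but the call was lost without t-chalcone replicate 1 (adjusted p = 0.0686), without EtOH replicate 3 (adjusted p = 0.0543) and in a limma fit of these 2 groups alone (adjusted p = 0.138). Non-overlap in the lower direction held for 3 members, against 10.2% of all genes. EXPA18 had 106, 182 and 267 in EtOH and 85.0, 113 and 110 with t-chalcone, a change of -0.76 ± 0.28 (limma adjusted p = 0.0674). Its groups overlapped by a narrow margin, through the EtOH library of 0.128 M. Without libraries under 0.5 M its change was -1.11 (limma adjusted p = 0.00775), and edgeR gave -1.20 (adjusted p = 0.000377).

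RSL4 had 106, 82.4 and 89.7 in EtOH at 3 h and 67.0, 88.0 and 82.5 with t-chalcone. SHV2 had 70.6, 87.7 and 199 in EtOH and 104, 131 and 116 with t-chalcone. EXPA7 had 141, 137 and 325 in EtOH and 132, 197 and 199 with t-chalcone. The groups of these 3 genes overlapped, with the lowest treated library of RSL4 and of EXPA7 below all controls, and the changes were -0.23 ± 0.23, 0.12 ± 0.28 and -0.09 ± 0.32 (SE, limma adjusted p of 0.531, 0.799 and 0.871). LRX1 had 212, 260 and 476 in EtOH and 181, 213 and 217 with t-chalcone, a change of -0.55 ± 0.33 (limma adjusted p = 0.261). Its groups overlapped only through the EtOH library of 0.128 M, and edgeR gave -0.93 (adjusted p = 0.0374). RHD6 had 35.3, 98.2 and 103 in EtOH and 92.4, 106 and 99.9 with t-chalcone, a change of 0.48 ± 0.35 (limma adjusted p = 0.369). The lowest EtOH value of RHD6 is the library at its floor. All genes had a median change of 0.15 in this comparison, and TMM scaling brought it to -0.01.

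From 6 h on, limma called 0 of the 9 members at each time. The share of all genes called in either direction was, for the 3 times in order, 0.449%, 0.0302% and 1.91%. Before adjustment 0, 0 and 1 members had p below 0.05, and edgeR called 0 at each. The log2 changes lay between -0.53 and 0.21 at 6 h, between -0.55 and 0.01 at 12 h and between -0.18 and 0.82 at 24 h. Non-overlap in the lower direction held at 6 h for 1 of the 9 members, about the share of all genes, 9.15%. The member was RHS19, which had 596, 686 and 557 in EtOH and 348, 407 and 537 with t-chalcone. Its change there was -0.53 ± 0.29 (limma adjusted p = 1.00). RSL4 at 6 h had 79.3, 99.5 and 80.4 in EtOH and 90.4, 95.1 and 114 with t-chalcone, with overlap. PRP1 had 279, 217 and 148 in EtOH and 134, 174 and 208 with t-chalcone at 6 h, and these groups overlapped as well.

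At 24 h LRX1 had 293, 297 and 107 in EtOH and 362, 455 and 314 with t-chalcone, and PRP3 had 277, 269 and 154 in EtOH and 283, 386 and 322 with t-chalcone. These 2 members had no overlap in the higher direction, which held for 5.48% of all genes. Their changes were 0.82 ± 0.33 (limma adjusted p = 0.183) and 0.54 ± 0.33 (limma adjusted p = 0.415). All 3 t-chalcone libraries of 24 h carry an S number in their descriptions where most libraries carry an index sequence, so a difference in how they were made or sequenced cannot be told apart from treatment there. These t-chalcone libraries were also shallower, with 0.866, 1.83 and 2.19 M against 14.3, 11.6 and 9.3 M in EtOH.

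Whether the effect of t-chalcone changed over the 5 times was tested by an F test in limma. It passed for 8 of the 9 members, against 8.21% of all genes, and RHD6 was the exception with an adjusted p of 0.556. A comparison added with the values known, the effect at 3 h minus that at 1 h, separated the members further as values. SHV2 moved back by 1.88 ± 0.40 (limma adjusted p = 0.0211), EXPA7 by 1.57 ± 0.45 (0.130) and RSL4 by 1.17 ± 0.33 (0.117), whereas RHS19 moved by 0.20 ± 0.42 (0.842) and PRP1 by 0.70 ± 0.50 (0.506). SHV2 was the 1 member called, against 0.403% of genes called higher. The call was lost, with an adjusted p between 0.0529 and 0.128, when 1 of 7 libraries was left out, namely EtOH 1 h replicate 1 or 2, EtOH 3 h replicate 1 or 2, t-chalcone 1 h replicate 2 or t-chalcone 3 h replicate 2 or 3. Without EtOH 3 h replicate 3, 5 members were called. A gene called at 1 h and not at 3 h is therefore not shown to differ between these times. Over all genes 96 were called in either direction, and 20 to 1635 without 1 library.

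A further view, also added with the values known, set treated roots against the 0 h libraries. At 1 h of t-chalcone 3 of 9 members were lower than at 0 h, against 10.3% of all genes. PRP3 changed by -1.72 ± 0.33 (limma adjusted p = 0.000237), LRX1 by -0.92 ± 0.33 (0.0381) and RHS19 by -0.90 ± 0.29 (0.0229). RHS19 lost its call without libraries under 0.5 M (-0.59, adjusted p = 0.128) and with edgeR (-0.60, adjusted p = 0.0939), and without t-chalcone 1 h replicate 2 only 1 member, PRP3, was called. RSL4 had 54.6, 28.8 and 43.9 at 1 h of t-chalcone and 27.0, 30.8 and 51.3 at 0 h, and these overlapped. Its change from 0 h was 0.23 ± 0.23 (limma adjusted p = 0.495).

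At 3 h of t-chalcone limma called RSL4 alone above 0 h, by 1.15 ± 0.23 (adjusted p = 0.000387), against 18.7% of all genes called higher. The count was 3, with EXPA7 and EXPA18, both with edgeR and without libraries under 0.5 M, and EXPA7 was also called without EtOH 0 h replicate 1. At 6, 12 and 24 h of t-chalcone 8 of 9 members were above 0 h, against 11.4%, 9.61% and 7.68% of genes, and RHD6 was again the one not called. With the S number as a covariate the count at 24 h was 3. These comparisons use the same 3 libraries of 0 h as those of EtOH, so their values stand side by side without being independent. PRP1 exceeded 0 h by 2.82 ± 0.35 with EtOH and by 2.53 ± 0.35 with t-chalcone at 6 h.

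In shoots limma called 0 of the 9 members at each of the 5 times. The share of all genes called there was, in order of time, 0.0481%, 0.035%, 1.55%, 0.76% and 1.14%. These shares are not stable, since leaving out 1 library moved the 11 genes called at 1 h to between 1 and 58, the 8 at 3 h to between 3 and 80 and the 174 at 12 h to between 22 and 8935. In shoots the filter on low values removed no gene, because the floors of the 3 shallow libraries are 17.4, 21.0 and 40.5. RSL4 and RHD6, at most 5.21 and 9.15 in the deeper shoot libraries, were tested only for that reason. Before adjustment 1, 1, 1, 0 and 0 members had p below 0.05, and edgeR called 0 each time. The lowest adjusted p was that of PRP3 at 3 h, with a change of -1.96 ± 0.55 (limma adjusted p = 0.295). Without libraries under 0.5 M limma called 1 member in shoots at 3 h, in a setting where far more genes were called. Standard errors in shoots were 0.55 to 0.85, wider than in roots. The difference of the t-chalcone effect between roots and shoots was called for 0 of 9 members at every time, against 0.118%, 0.0655%, 0.201%, 0.149% and 1.31% of genes from 1 to 24 h. These shares move as well, from 15 genes at 3 h to between 0 and 760, from 34 at 12 h to between 5 and 7317 and from 300 at 24 h to between 95 and 843 without 1 library. Before adjustment 3, 1, 0, 0 and 2 members had p below 0.05, and edgeR called 0, 2, 0, 0 and 0. At 1 h that difference was -1.82 ± 0.86 for PRP1 and -1.83 ± 0.72 for EXPA18 (limma adjusted p of 1.00 and 0.890), which leaves a difference between tissues undecided. Without libraries under 0.5 M limma called the difference between tissues for 1 member at 3 h and for 1 at 24 h.

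Lists of related genes were read at 1 h beside the 3.04% of all genes called lower. Of 21 other hair wall and RHS genes 19 were lower, 0 were higher and 2 did not pass, with a median of -1.98. The xyloglucan endotransglucosylases XTH12 (-3.16 ± 0.41) and XTH13 (-2.60 ± 0.41), which cut and rejoin xyloglucan chains in the wall, and the extensins EXT6 (-2.84 ± 0.41) and EXT13 (-2.55 ± 0.40) changed most. Their limma adjusted p was at most 5.59e-05. Of 18 genes of hair tip growth 4 were lower and 14 did not pass, with a median of -0.23. The 4 were MRH6 (-2.53 ± 0.31), the receptor kinase ERU (-1.51 ± 0.29), the protein kinase IRE (-1.39 ± 0.32) and the phosphatidylinositol transfer protein COW1 (-1.32 ± 0.39), with limma adjusted p of at most 0.0415.

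The regulators around RHD6 and RSL4 were not called at 1 h. Of 7 other bHLH regulators of hair growth 6 were tested and 0 were called by limma, with 2 with p below 0.05 before adjustment and 3 called by edgeR, and a median of -0.50. Of 10 genes of epidermal cell fate 9 were tested and 0 were called by limma, with 0 below a p of 0.05 before adjustment, 0 called by edgeR and a median of -0.05. Of 17 other alpha expansins 13 were tested, and EXPA10 was higher by 1.63 ± 0.30 (limma adjusted p = 0.000493), opposite to EXPA7 and EXPA18, while EXPA14 was lower by 1.01 ± 0.28 (adjusted p = 0.0284). Of 13 other PRP, LRX and COBRA family genes 12 were tested and 1 was lower, AT3G22800, a leucine-rich repeat family protein, with a change of -0.94 ± 0.17 (limma adjusted p = 0.000343).

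At 3 h 15 of the 21 other hair wall and RHS genes were lower, against 3.26% of all genes, and 6 did not pass, with a median of -1.35. Of the 15, 14 were among the 19 of 1 h. XTH26 (-2.82 ± 0.56), XTH13 (-2.68 ± 0.41), XTH12 (-2.60 ± 0.41) and the glycerol-3-phosphate permease RHS15 (-2.18 ± 0.46) changed most, with limma adjusted p of at most 0.00184. Over all genes limma called 2688 at 3 h in either direction, 646 of them lower, so most of those called were higher. Among the other bHLH regulators LRL1 was higher by 1.26 ± 0.22 (limma adjusted p = 0.000164) and LRL2 by 0.77 ± 0.25 (adjusted p = 0.0399). Of the cell fate genes TTG1 was higher by 0.76 ± 0.22 (limma adjusted p = 0.0183) and ETC1 was lower by 1.71 ± 0.49 (adjusted p = 0.0185). Of the tip growth genes TIP1 was higher by 0.55 ± 0.18 (limma adjusted p = 0.0406) and MRH6 was lower by 1.18 ± 0.31 (adjusted p = 0.0124). Calls of single list genes at 3 h were not repeated without the EtOH library of 0.128 M. All genes had a median change of 0.145 in this comparison. The other expansins and the other PRP, LRX and COBRA genes had 0 called by limma, with 3 each with p below 0.05 before adjustment, and edgeR called 1 expansin and 0 of the latter. At 6, 12 and 24 h limma called 0 genes of any of these lists, with at most 4 of a list with p below 0.05 before adjustment, and edgeR called 1 hair wall gene at 6 h and 1 PRP, LRX or COBRA gene at 12 h.

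**Figure D3:**
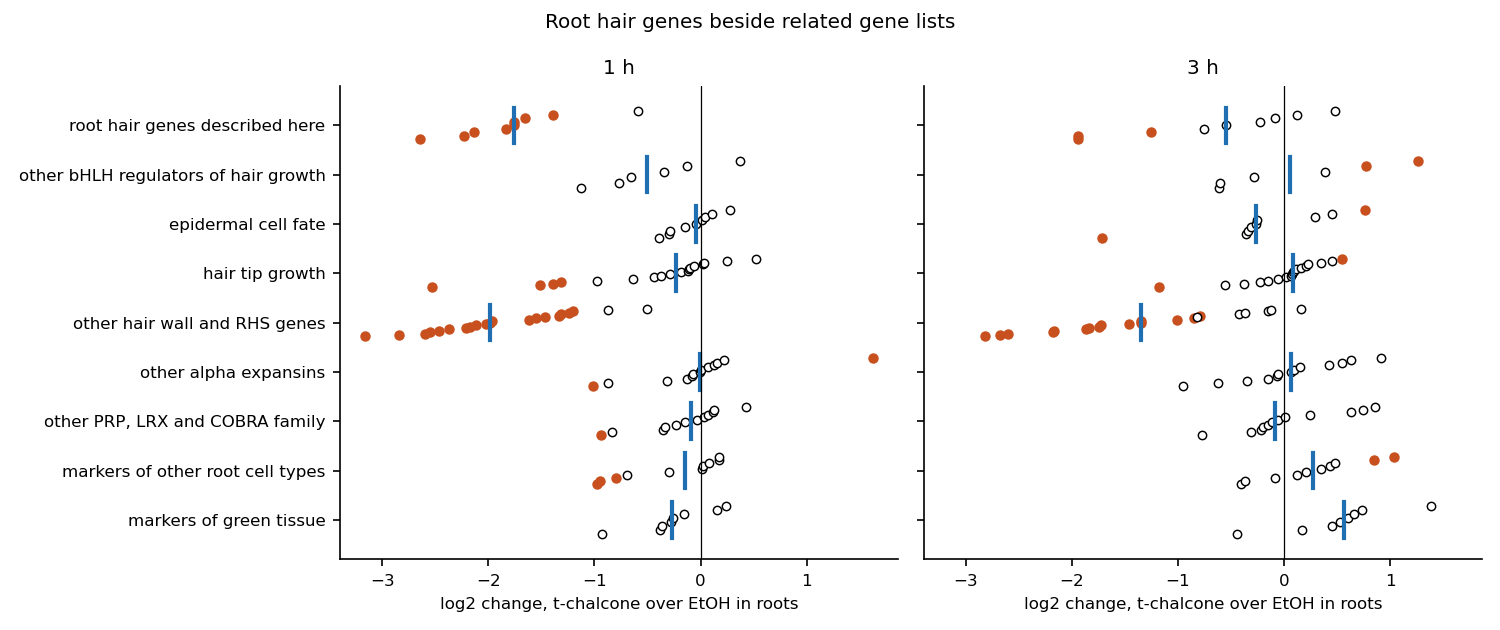
Log2 change in roots, t-chalcone minus EtOH, at 1 h and 3 h for the genes tested of each list, one point per gene, with a blue bar at the list's median. The members and the other hair wall and RHS genes lie mostly below 0 at 1 h, with medians of -1.76 and -1.98, while the cell fate genes lie around 0.

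Markers of other cells were read in the same libraries. Of 10 markers of other root cell types 3 were lower at 1 h, CASP2 (-0.98 ± 0.27) and CASP1 (-0.95 ± 0.26) of the endodermis and BRN1 (-0.79 ± 0.24) of the root cap (limma adjusted p of 0.0269, 0.0263 and 0.0447), with a list median of -0.14. Their summed level was 5650 to 6160 deposited units in EtOH and 4560 to 5540 with t-chalcone. Of 8 markers of green tissue 0 were called by limma, and their sum was 2760 to 3800 in EtOH and 2130 to 4120 with t-chalcone. At 3 h SHR (1.03 ± 0.32) and APL (0.85 ± 0.27) of the stele were higher (limma adjusted p of 0.0298 and 0.0331). Most of the 2688 genes that limma called at 3 h were higher too, and the calls of SHR and APL were not repeated without the shallow EtOH library. The summed levels at 3 h were 3140 to 5910 in EtOH and 5050 to 5550 with t-chalcone for other root cell types, and 1310 to 3020 against 2900 to 3060 for green tissue. The part of these differences in the results on hair genes was not tested.

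Across the 31 root libraries of at least 0.5 M, the genes most like the mean of the members were AT1G30870, a peroxidase (Pearson r = 0.970), RHS12 (0.970), the transcription factor RAP2.11 (0.960), the kinase AT3G07070 (0.958) and the proline-rich MOP10 (0.956). They were followed by PERK13 (0.949), AT3G09925 (0.946), MRH6 (0.946), AT5G04960 (0.945) and AT5G57625 (0.945). The points share treatment, time and library, and the correlations only describe these libraries. Among the members the wall genes ran closely together, with r between 0.812 and 0.968 for every pair of the 7. RSL4 had r of 0.656 to 0.781 with them, and RHD6 had 0.437 to 0.564 with them and 0.369 with RSL4. The genes most like RSL4 alone were PERK13 (0.817), UGT84A4 (0.816), GH9C1 (0.803), AT2G44760 (0.796) and RSH3 (0.795). Ranked among 19834 genes by likeness to RSL4, EXPA7 stood at 7, EXPA18 at 12 and RHD6 at 1649.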

How the data were processed

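RNA-seq libraries of shoots and roots were analysed from 1 table of gene values. The deposited unit is a signal: per the submitters' processing notes the authors used TAIR10 and DESeq2 1.14.1, and each column is gene counts over 1 size factor. Not given in the sources used here are aligner, counter and strand setting. Within 0.01, 100% of a column's deposited signal values were whole multiples of its lowest one, and dividing by that gave whole numbers. Depth here means their sum, which may be off from the read count by a factor. No value was 0, and a lowest value may stand for no reads.

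The 72 columns held 6 identical pairs, which left 66 libraries in 22 groups of 3. Values were tested as log2(value + 1) with limma 3.58.1 with a mean-variance trend, 1 mean per group, per tissue or over both tissues, on genes with at least 10 in at least 3 libraries (19835 in roots, 22884 in shoots and over both, where it removed none since shallow shoot libraries have floors above 10), which kept all 9 members. P-values are two-sided, with Benjamini-Hochberg adjustment across every gene of the fit and a threshold of 0.05. Fold changes on this scale understate changes of low genes. Each ± beside a change is the SE from limma, and beside a level the SD. Shares of all genes called are those of limma on all libraries, and counts by edgeR have no such share beside them. Alternatives were edgeR 4.0.16 (quasi-likelihood) on the recovered whole numbers, a pseudocount of 5, no filter, TMM scaling, the 7 libraries with an S number as a covariate, the groups of a contrast alone, and leaving out libraries under 0.5 M or each replicate in turn. The script was tested on simulated data.

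The 9 members, the gene lists and the tests were chosen with earlier results of these data known. All members are named, and from every other list up to 4 called genes with the largest change per root comparison. Replicate numbers follow accession order and only name a library. Names, coordinates and promoters come from RefSeq on TAIR10.1, which holds 22708 of the identifiers.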

Additional observations from a re-analysis of the deposited data

Results flagged for a closer look

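The effect of t-chalcone in roots differed between the 5 times for 8 members by limma's F test. The adjusted p was 0.000171 for RHS19, 0.00126 for PRP1, 0.00155 for PRP3 and 0.003 for SHV2. It was 0.00643 for LRX1, 0.00656 for RSL4, 0.00944 for EXPA18 and 0.0436 for EXPA7. In each gene the change was negative at 1 h and not called from 6 h on.

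The effect on SHV2 at 3 h exceeded that at 1 h by 1.88 on the log2 scale, a comparison added with the values known. Its adjusted p of 0.0211 from limma rose to between 0.0529 and 0.128 when 1 of 7 libraries was left out.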

How the results depend on the processing

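No paired analysis was possible because the labels number no replicates, and the numbers used here follow accession order. The count of members called at 1 h was 8 under every alternative except edgeR and the fit without libraries under 0.5 M, which called RHD6 too. Leaving out single replicates aside, counts moved by over 1.5 times in 10 cases. With edgeR they were 5 (for 3) for t-chalcone at 3 h in roots, 8 (for 5) for EtOH 3 h against 0 h, 3 (for 1) for t-chalcone 3 h against 0 h, 2 (for 1) for the effect at 3 h minus 1 h and 2 (for 0) for the effect in roots minus shoots at 3 h. Without libraries under 0.5 M they were 3 (for 1) for t-chalcone 3 h against 0 h, 1 (for 0) for t-chalcone in shoots at 3 h and 1 (for 0) for the effect in roots minus shoots at 3 h and at 24 h. With the S number as a covariate the count at t-chalcone 24 h against 0 h was 3 (for 8). Leaving out each replicate gave 8 to 8 for t-chalcone at 1 h, 2 to 4 at 3 h, 4 to 8 for EtOH 3 h, 1 to 4 for t-chalcone 1 h against 0 h, 1 to 2 for t-chalcone 3 h against 0 h, 0 to 5 for the effect at 3 h minus 1 h and 7 to 8 for the F test. RHD6 at t-chalcone 1 h against 0 h was -0.20, and -0.87 to 0.14 without 1 library, with 0.12 and 0.14 without EtOH 0 h replicate 2 and 3. The cause was not tested.

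Over all genes, t-chalcone in roots at 1 h called 914, and 2963 with edgeR, 1697 without libraries under 0.5 M and 522 at the lowest without 1 replicate. At 3 h it called 2688, and 384 with the 2 groups alone, 1646 without shallow libraries and 1028 to 5427 without 1 replicate. At 6 h it called 89, and 278 with edgeR, 241 with 2 groups alone, 239 without shallow libraries and 13 at the lowest. At 12 h it called 6, and 471, 0 and 138 under these 3, 25 with TMM, 13 with a pseudocount of 5 and 2 to 32 without 1 replicate. At 24 h it called 378, and 168 with TMM, 0 with the S number as a covariate, 2476 without shallow libraries and 31 at the lowest. In shoots edgeR called 181, 294, 2756, 555 and 533 genes from 1 to 24 h for 11, 8, 355, 174 and 262 with limma, and limma without shallow libraries called 92, 1307, 4430, 830 and 2438. Of the single member results called in some setting, 785 alternatives kept direction and call, 38 gained a call, 23 lost it and 2 changed sign.

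Depth limits RHD6, RSL4 and PRP1 at 0 h, the EtOH 3 h group of roots through its library of 0.128 M, and all members in shoots. Having 3 libraries per group limits every comparison.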
